A study of Mus musculus with 8 samples.

Results

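Transcripts that mark the mural cells of blood vessels were examined in the tibialis anterior (TA) of WT and KL-/- mice. The members are 8 genes chosen by symbol as known markers, with earlier results of these data known, and all 8 were among the 12551 genes in the table of read counts. *Acta2*, *Myh11* and *Tagln* encode contractile proteins of vascular smooth muscle, and *Rgs5*, *Pdgfrb*, *Cspg4*, *Notch3* and *Mcam* are used as pericyte markers. RNA came from whole TA muscles of male littermates aged 7 weeks, 4 WT (Klotho wt/wt) and 4 KL-/- (Klotho null/null, labelled Kl knockout), bred from heterozygotes on a mixed background. The KL-/- mice lack Klotho, an antiageing protein made mainly in the kidney, in every tissue, so differences are not those of a deletion in vessels. *Kl* itself was not analysed here, so genotypes are those that the sample labels give.

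Mural cells wrap the endothelial tube. Smooth muscle cells form the contractile coat of arterioles and arteries, whereas pericytes lie along capillaries and venules within the basement membrane. Endothelial PDGF-B recruits pericytes through the receptor PDGFRβ, endothelial Jagged 1 maintains mural identity through Notch3, and serum response factor (SRF) with its coactivators of the myocardin family drives the smooth muscle contractile genes. None of the 8 transcripts belongs to a single cell type. *Pdgfrb* is also expressed by fibroblasts, *Mcam* by endothelial cells and *Acta2* by myofibroblasts.

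Counts on genes summed to between 20860262 and 29273758 per library, and each member was counted between 339 and 7330 times in every library. Values are counts relative to library size (CPM), scaled with edgeR's TMM factors, given as mean ± SD with n = 4 mice per genotype. Log2 fold changes are KL-/- over WT, and FDR is the Benjamini-Hochberg adjusted p over all 12551 genes from edgeR's quasi-likelihood test. Skeletal muscle identity was clear from the counts, with *Acta1*, the skeletal actin, at 30773 ± 2464 CPM in WT muscle. The batch date of KL-/- replicate 3 differs from that of the other 7, and with 1 such library the batch and the mouse cannot be told apart. In whole muscle, fewer cells of a type and less RNA per cell cannot be told apart.

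*Tagln* rose in KL-/- muscle, and none of the other 7 markers passed an FDR of 0.05. The 3 smooth muscle genes had positive log2 fold changes of 0.25 to 0.52, and the 5 pericyte genes lay between −0.23 and 0.20. With 1 of 8 markers called, the share (12.5%) was near that of all genes, of which 14.0% passed in either direction, 7.35% being higher and 6.67% lower. The median log2 fold change was 0.13 over the markers and −0.016 over all genes. In 0 of the 8 markers were the genotypes free of overlap, whereas 19.7% of all genes had no overlap and 10.2% lay wholly higher in KL-/- muscle. At an unadjusted p under 0.05 the count was also 1, against 32.1% of all genes, and DESeq2 called 1 marker as well.

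**Figure D1:**
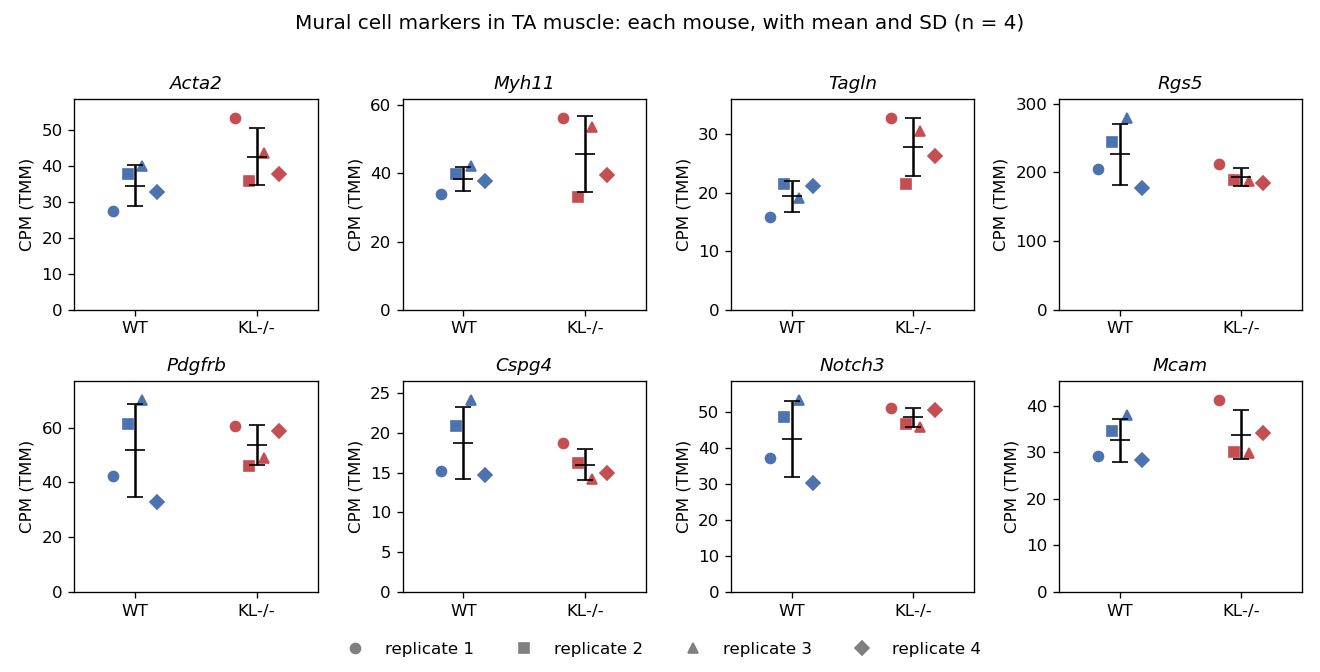
Level of each of the 8 markers in TMM-scaled CPM (vertical axes, from 0) in every WT and KL-/- mouse. Symbols give the replicate number within the genotype, by which no label pairs mice, and bars give the mean and SD (n = 4). The highest *Tagln* values belong to KL-/- replicates 1, 3 and 4, and the spread of *Pdgfrb* is larger in WT (SD 17.1 CPM) than in KL-/- muscle (SD 7.22 CPM).

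*Tagln* encodes transgelin (SM22α), an actin-binding protein of smooth muscle (chromosome 9, 45929628 to 45936058 of mm10, minus strand). It was at 15.8, 21.6, 19.1 and 21.1 CPM in WT replicates 1 to 4 and at 32.8, 21.6, 30.7 and 26.3 CPM in KL-/- replicates 1 to 4. In 3 of 4 KL-/- muscles it lay above every WT value, and KL-/- replicate 2 lay just below the highest WT muscle. Means were 19.4 ± 2.62 CPM for WT and 27.9 ± 4.99 CPM for KL-/-, so *Tagln* rose by 0.52 on the log2 scale (standard error 0.14, FDR = 0.0394). The 95% confidence interval of the fold change was 1.15 to 1.79. The call was close to the threshold. It held without KL-/- replicate 2 (FDR = 0.00942) and was lost without any single one of the other 7 libraries (FDR from 0.0528 without WT replicate 4 to 0.102 without KL-/- replicate 3), while the log2 fold change stayed between 0.44 and 0.64. Scaled by library totals instead of TMM factors, it was 0.41 (FDR = 0.0798).

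The *Tagln* locus overlaps 2 genes on the opposite strand, *Pcsk7* and an antisense gene. Whether counting used strand is not given in the sources used here. *Pcsk7*, which encodes a proprotein convertase, shares 95 exonic bases with *Tagln* in the counted gene models. Its means were 17.1 CPM (WT) and 20.3 CPM (KL-/-) (log2 fold change 0.25, edgeR's quasi-likelihood FDR = 0.106, standard error 0.094). Its part in the *Tagln* counts was not tested. *Notch3* and *Mcam* also overlap an antisense gene.

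*Acta2* encodes smooth muscle α-actin (chromosome 19, 34240336 to 34255373, minus strand). WT muscles had 27.4, 37.8, 40.0 and 32.6 CPM, and KL-/- muscles 53.3, 35.6, 43.5 and 37.8 CPM. KL-/- replicates 1 and 3 exceeded all WT muscles and the other two lay within the WT range. The means were 34.5 ± 5.62 and 42.6 ± 7.90 CPM, and *Acta2* missed the threshold at a log2 fold change of 0.31 (FDR = 0.188, standard error 0.15). Its 95% interval in fold terms was 0.981 to 1.56. Actin genes are near-identical in coding sequence. *Acta2* CPM equalled 0.0914% to 0.191% of *Acta1* CPM in the 8 muscles, so reads assigned to the wrong actin could alter its counts. *Acta1* itself had a log2 fold change of 0.060 (FDR = 0.840). *Actc1*, the cardiac actin, ranged from 134 to 1724 CPM in WT and from 181 to 3119 CPM in KL-/- muscles. WT replicates 3 and 2 were highest for both *Actc1* and *Acta2* in their genotype, whereas KL-/- replicate 2 had the highest *Actc1* and the lowest *Acta2*. The part of the paralogs in the *Acta2* counts was not tested.

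*Myh11* encodes the smooth muscle myosin heavy chain, the most restricted of the 3 contractile markers (chromosome 16, 14194527 to 14291408, minus strand). It was at 34.0, 39.7, 42.2 and 37.7 CPM in WT and at 56.3, 33.1, 53.7 and 39.5 CPM in KL-/- muscles. Again KL-/- replicates 1 and 3 stood above all WT muscles, and KL-/- replicate 2 was the lowest of all 8. The means of 38.4 ± 3.48 and 45.6 ± 11.1 CPM differed by less than the SD of the KL-/- muscles (log2 fold change 0.25, standard error 0.16, FDR = 0.302). The 95% interval of the fold change was 0.929 to 1.52.

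Promoter sequence was available in the RefSeq table (GRCm38.p6, the assembly of mm10) for 5 of the 8 members, namely *Acta2*, *Rgs5*, *Cspg4*, *Notch3* and *Mcam*. *Acta2* and *Rgs5* are shown as 1 smooth muscle and 1 pericyte gene with an entry. Each stretch is the 250 bases before the listed start, read 5′ to 3′ on the gene's strand (*Acta2*, chr19:34255374-34255623, minus; *Rgs5*, chr1:169655251-169655500, plus). Capitals mark CArG-like boxes, the SRF binding motif, here with at most 1 base of the 6-base core other than A or T, and the TEAD core CATTCC on either strand.
Acta2: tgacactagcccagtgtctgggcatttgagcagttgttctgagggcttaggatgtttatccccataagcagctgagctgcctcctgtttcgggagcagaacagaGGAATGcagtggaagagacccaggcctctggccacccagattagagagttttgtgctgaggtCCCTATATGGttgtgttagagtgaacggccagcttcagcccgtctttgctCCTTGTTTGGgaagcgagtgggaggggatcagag
Rgs5: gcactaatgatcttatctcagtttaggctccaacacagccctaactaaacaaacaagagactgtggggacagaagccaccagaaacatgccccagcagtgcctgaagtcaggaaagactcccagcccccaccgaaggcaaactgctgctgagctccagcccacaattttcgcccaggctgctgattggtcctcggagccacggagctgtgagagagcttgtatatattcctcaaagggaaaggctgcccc
The *Acta2* stretch held 2 CArG-like boxes, CCCTATATGG beginning 84 bases and CCTTGTTTGG beginning 34 bases before the listed start, and 1 TEAD core (GGAATG, 146 bases before it). Among promoters of counted genes, 7.70% held a CArG-like box and 10.7% a TEAD core in the same window. An exact CArG box was found in 1.19% of them and in none of the 5 member promoters. The RBPJ core GTGGGAA, through which Notch acts, occurred in 5.30% of promoters of counted genes and in none of the 5. The relaxed form of the box was chosen after the sequence had been seen, and a match is a description of letters only.

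*Rgs5*, a regulator of G-protein signalling that accelerates GTP hydrolysis by Gα subunits, was the most abundant marker (chromosome 1, 169655501 to 169693526, plus strand). WT muscles had 205, 244, 279 and 178 CPM and KL-/- muscles 213, 189, 188 and 185 CPM. The KL-/- values fell inside the wider WT range. Means were 226 ± 44.6 CPM (WT) and 194 ± 12.9 CPM (KL-/-), and the log2 fold change, −0.23 with standard error 0.13, did not pass (FDR = 0.245). The 95% interval of the fold change was 0.702 to 1.04.

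*Pdgfrb*, the receptor for PDGF-B, lies on chromosome 18 (61045150 to 61085067, plus strand). Its values were 42.2, 61.5, 70.1 and 32.9 CPM in WT and 60.7, 46.0, 49.0 and 58.9 CPM in KL-/- muscles. The highest WT muscle had 2.13 times the level of the lowest, and all KL-/- muscles lay between them. From means of 51.7 ± 17.1 and 53.7 ± 7.22 CPM, the estimate on the log2 scale was 0.056 (standard error 0.21, FDR = 0.878), with the widest interval of the 8 markers (fold change 0.746 to 1.45). The sign turned with library totals (log2 fold change −0.061).

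*Notch3*, the Notch receptor of mural cells (chromosome 17, 32120893 to 32166852, minus strand), had 37.4, 48.8, 53.4 and 30.3 CPM in WT and 51.1, 46.7, 45.9 and 50.7 CPM in KL-/- muscles. The 4 KL-/- muscles lay close together, inside the WT range. The means, 42.5 ± 10.5 and 48.6 ± 2.67 CPM, were 0.20 apart in log2 terms (standard error 0.16, FDR = 0.409), with a fold change interval of 0.900 to 1.46. *Cspg4*, the NG2 proteoglycan of the pericyte surface (chromosome 9, 56865104 to 56899870, plus strand), had 15.2, 20.9, 24.2 and 14.8 CPM in WT and 18.7, 16.2, 14.3 and 14.9 CPM in KL-/- muscles. Means of 18.8 ± 4.57 and 16.02 ± 1.97 CPM corresponded to −0.23 on the log2 scale (standard error 0.17, FDR = 0.371), and the fold change interval was 0.661 to 1.11. *Mcam*, the adhesion molecule CD146 (chromosome 9, 44134658 to 44142726, plus strand), had 29.3, 34.7, 38.1 and 28.4 CPM in WT and 41.3, 30.1, 29.9 and 34.1 CPM in KL-/- muscles. The means of 32.6 ± 4.61 and 33.8 ± 5.33 CPM were almost equal (log2 fold change 0.054, standard error 0.13, FDR = 0.799). The fold change interval was 0.850 to 1.27, and the sign turned with library totals (−0.062).

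**Figure D2:**
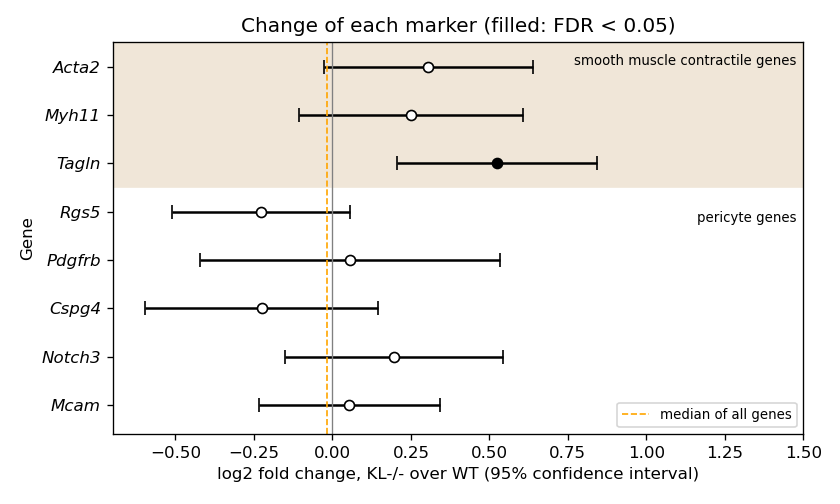
Log2 fold change of KL-/- over WT (horizontal axis) with 95% confidence interval for each marker, filled where FDR is under 0.05; the shaded rows are the smooth muscle contractile genes and the dashed line is the median of all 12551 genes. The interval of *Tagln*, from 0.21 to 0.84, lies above 0, and those of the other 7 markers include 0.

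Levels were compared between genes per kilobase of exon (CPM per kb, from the gene lengths in the count table). *Rgs5* had a median of 109 CPM per kb over the 8 muscles and stood above 96.3% of all counted genes by its mean on this scale. It exceeded *Acta2* in 8 of 8 muscles, by a median of 7.64 times. *Acta2* (14.7 CPM per kb) and *Tagln* (13.6) were not separable, with *Acta2* higher in 5 of 8 muscles. *Mcam* (11.1) was below *Tagln* in 6 of 8 muscles. *Mcam* exceeded *Pdgfrb* (9.97), and *Pdgfrb* exceeded *Notch3* (6.01), in 8 of 8 muscles each, although their ranges over mice overlapped. *Notch3* and *Myh11* (5.97) were not separable, with *Notch3* higher in 4 of 8. *Cspg4* was lowest, at 1.95 CPM per kb, below *Myh11* in 8 of 8 muscles without overlap of the ranges.

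The markers varied together between mice of the same genotype, with most of the higher correlations inside the smooth muscle and the pericyte group. After each gene's genotype mean was subtracted from its log2 CPM, Pearson's r over the 8 muscles was 0.81 to 0.87 among the 3 smooth muscle genes. Among the 10 pairs of pericyte genes it was 0.78 to 0.98, highest for *Pdgfrb* with *Notch3*. Between the blocks the median over 15 pairs was 0.40, from 0.098 for *Tagln* with *Notch3* to 0.81 for *Acta2* with *Mcam*. The blocks overlapped, since *Acta2* with *Mcam* was as high as *Acta2* with *Tagln* (0.81) and above *Notch3* with *Mcam* (0.78). These values describe points that share libraries and their scaling. The median r of *Rgs5* with all other genes at an average log2 CPM of at least 1 was −0.10, and 0.181% of those 11037 genes reached the median r of *Rgs5* with the other pericyte genes (0.95). This was the lowest such share among the pericyte genes, and the highest were 1.33% for *Mcam* and 1.80% for *Cspg4*. For *Acta2* that share was 0.979%, against a median r of 0.83 with *Myh11* and *Tagln*. *Acta2* also varied with the pericyte genes, at a median r of 0.68, whereas for *Tagln* that median was 0.23.

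**Figure D3:**
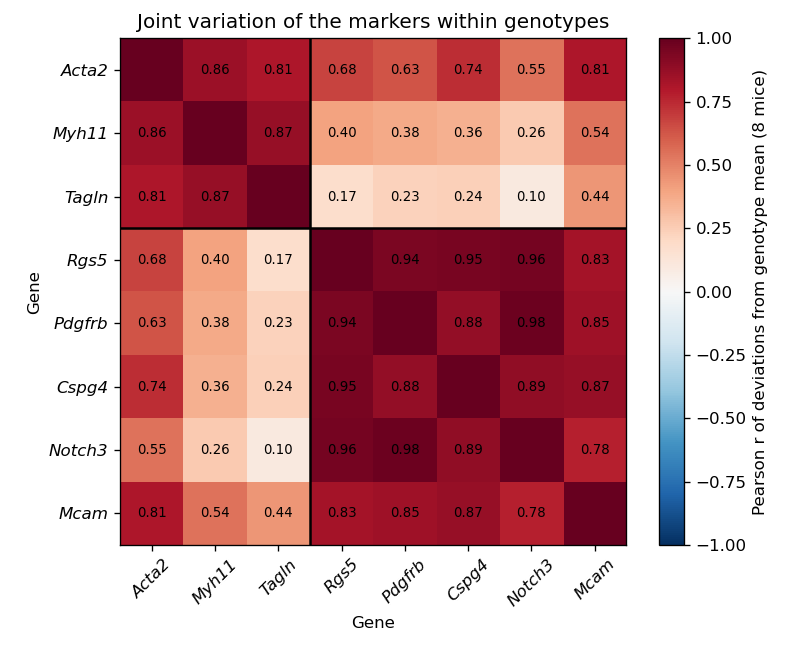
Pearson's r between the markers (both axes list the genes) over 8 muscles after subtraction of each genotype mean; black lines divide the smooth muscle from the pericyte genes. Pairs within the pericyte block lie between 0.78 and 0.98, and *Tagln* has r of 0.098 to 0.44 with the pericyte genes.

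Several mice stood high or low for most markers at once. All 8 markers lay above their genotype mean in WT replicate 2 and in KL-/- replicate 1, and 7 did so in WT replicate 3. In WT replicate 1 none did, and 1 did in each of WT replicate 4 and KL-/- replicate 2. The mean log2 CPM of the 3 smooth muscle genes was 4.62 to 5.0 in WT and 4.88 to 5.53 in KL-/- muscles. That of the 5 pericyte genes was 5.23 to 5.97 in WT and 5.49 to 5.79 in KL-/- muscles. The difference between these means, smooth muscle minus pericyte, averaged −0.73 ± 0.27 in WT and −0.38 ± 0.24 in KL-/- muscles, and its ranges overlapped (−0.98 to −0.34 and −0.63 to −0.11). The CPM ratio of *Tagln* to *Rgs5* was 0.0682 to 0.119 in WT and 0.114 to 0.164 in KL-/- muscles, where again only KL-/- replicate 2 fell within the WT range. This ratio joins the markers with the highest and the lowest log2 fold change of the 8, so its shift restates those values and is not separate evidence. The ratios of *Tagln* to *Acta2* and of *Rgs5* to *Pdgfrb* also overlapped between genotypes. SD of CPM was larger in KL-/- muscle for 3 of 3 smooth muscle genes and larger in WT for 4 of 5 pericyte genes, all but *Mcam*, and the difference in spread was not tested.

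**Figure D4:**
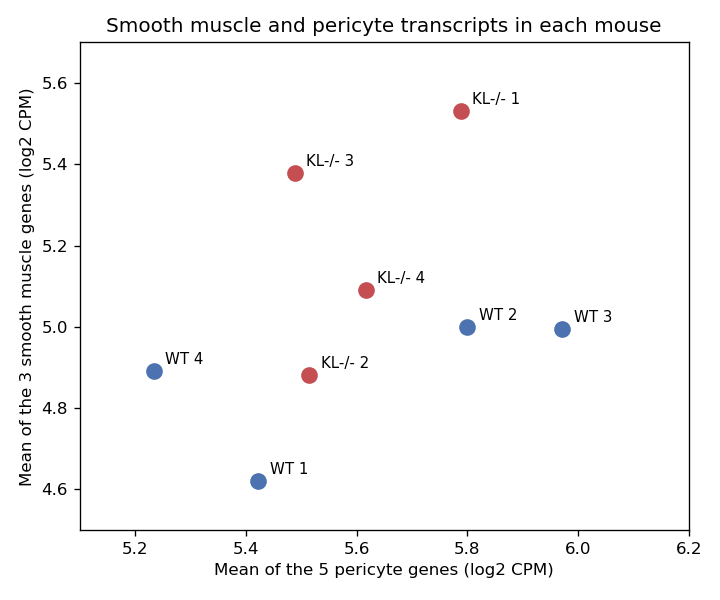
Mean log2 CPM of the 3 smooth muscle genes (vertical axis) against that of the 5 pericyte genes (horizontal axis) in each mouse, labelled by genotype and replicate. KL-/- replicates 1, 3 and 4 lie above the WT muscles on the vertical axis (5.09 to 5.53 against at most 5.0), and the genotypes overlap on the horizontal axis.

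Some marker lists of other cell types moved with the same WT mice. WT replicates 2 and 3 were higher than WT replicates 1 and 4 for the mean log2 CPM of 14 fibro-adipogenic genes (6.50 and 6.69 against 5.94 and 5.67). The same order held for 10 macrophage genes (2.95 and 3.26 against 2.41 and 2.24). It did not hold for 20 endothelial genes, where WT replicate 4 (5.784) lay just above WT replicate 2 (5.777). Nor did it for 10 myofiber genes, where WT replicate 1 (13.63) lay above WT replicate 3 (13.60). All 14 fibro-adipogenic genes had negative log2 fold changes (median −0.91, 5 lower and 0 higher at FDR under 0.05), with *Pdgfra* at −0.84 (edgeR's quasi-likelihood test, FDR = 0.11) and *Dcn*, which encodes decorin, at −0.94 (FDR = 0.0305). The list mean lay between 5.67 and 6.69 in WT and between 4.64 and 5.69 in KL-/- muscles. The 10 macrophage genes had a median of −0.89 (2 lower, 0 higher), and their means were 2.24 to 3.26 in WT and 1.51 to 2.45 in KL-/- muscles. Over all genes, 6.67% were lower and 7.35% higher at FDR under 0.05. The counts depended on the test. An unadjusted p under 0.05 (edgeR) was reached by 12 fibro-adipogenic and 7 macrophage genes, all lower, against 32.1% of all genes. DESeq2 called 9 and 7 lower and 0 higher. The calls of *Dcn* and of the macrophage genes *Adgre1* and *Itgam* were each kept in 3 of 8 fits without 1 library. The 8 Schwann cell genes had a median of 0.70 (3 higher, 0 lower, among them *Sox10*), with means of 1.60 to 2.21 and 2.41 to 2.63. No defining marker of these lists was at 0. Their part in the mural values was not tested.

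Endothelial cells, the partners of mural cells, had called genes in both directions. Of 20 endothelial genes 2 were higher and 2 lower at FDR under 0.05, with a median log2 fold change of −0.15 and list means of 5.54 to 6.02 in WT and 5.56 to 5.64 in KL-/- muscles. *Kdr*, the VEGF receptor 2, fell from 102 ± 23.6 to 54.8 ± 4.90 CPM (log2 fold change −0.90, edgeR's quasi-likelihood FDR = 0.00781). *Sox18* also fell (−0.73, FDR = 0.0496), a call kept in 1 of 8 fits without 1 library and lost with RLE factors (FDR = 0.0505). *Fabp4* and *Sox17* rose (0.27 and 0.59), each kept in 2 of 8 fits without 1 library and lost with library totals (edgeR's FDR = 0.138 and 0.0626). The pan-endothelial marker *Pecam1* had means of 113 ± 19.9 CPM (WT) and 109 ± 2.64 CPM (KL-/-), −0.059 apart on the log2 scale (standard error 0.11, FDR = 0.744). *Cdh5*, VE-cadherin, had 183 ± 33.7 and 144 ± 10.4 CPM, −0.35 apart (standard error 0.12, FDR = 0.0787). Over the list 14 of 20 genes had negative values, and at an unadjusted p under 0.05, 6 were lower and 2 higher. Of all genes, 14.0% passed an FDR of 0.05 and 32.1% had an unadjusted p under 0.05.

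Other genes of the contractile apparatus were described from a list. Of 24 listed genes 22 were counted, and 0 passed an FDR of 0.05 with edgeR, with a median log2 fold change of 0.031 and 11 in each direction. At an unadjusted p under 0.05, 3 were higher and 3 lower, against 32.1% of all genes in either direction, and DESeq2 called 1 in each direction. *Lmod1*, which encodes the actin-nucleating leiomodin 1, went from 4.81 ± 1.53 to 7.29 ± 1.16 CPM without overlap of the genotypes (log2 fold change 0.59, FDR = 0.0938). *Pln*, the SERCA inhibitor phospholamban, was at 1.74 ± 0.404 and 2.59 ± 0.232 CPM (0.56, FDR = 0.0729). *Cald1*, caldesmon, had the opposite sign (−0.35, FDR = 0.0911), as did *Smtn* (−0.29, FDR = 0.131) and *Vcl* (−0.26, FDR = 0.0634). *Cnn1* was at 0.32 (FDR = 0.541). Many listed genes, such as *Synpo2*, *Synm* and *Tpm2*, are also expressed by skeletal fibres.

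Of 17 further pericyte genes counted, 2 were lower and 0 higher, where 6.67% of all genes were lower and 7.35% higher. *Adra1a*, the α1A adrenergic receptor, fell from 1.92 ± 0.382 to 0.960 ± 0.187 CPM (log2 fold change −1.0, FDR = 0.0204 from edgeR's quasi-likelihood test). *Atp13a5*, a P-type ATPase, fell from 5.72 ± 0.767 to 3.56 ± 0.679 CPM (−0.69, FDR = 0.0223). Each kept its call in 5 of the 8 fits that left out 1 library. The median of the list was −0.088, with 13 genes negative and 4 positive. *Vtn*, vitronectin, was at −0.24 (FDR = 0.384) and *Abcc9* at −0.034 (FDR = 0.811). In WT muscle *Abcc9* was at 403 ± 34.4 CPM, against 25.8 ± 7.04 CPM for *Kcnj8*. The part of other cells, such as skeletal fibres, in the *Abcc9* counts was not tested. *Kcnj8* (0.22, FDR = 0.441) and *Higd1b* (0.29, FDR = 0.487) had positive values.

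The pathways upstream of the markers were counted from the same lists. Each count below stands against 6.67% of all genes lower and 7.35% higher at FDR under 0.05. Of 16 listed regulators of smooth muscle transcription 12 were counted, of which 1 was lower and 0 were higher. *Myocd* and *Mrtfa*, which encode SRF coactivators of the myocardin family, were among those not found in the counts. *Tead1*, a TEAD factor that cooperates with SRF at muscle promoters and is also expressed in skeletal fibres, fell from 453 ± 44.5 to 360 ± 29.5 CPM (log2 fold change −0.33, FDR = 0.0351 from edgeR's quasi-likelihood test, kept in 2 of 8 fits without 1 library). *Srf* was at 110 ± 9.92 and 106 ± 11.1 CPM (−0.055, FDR = 0.701).

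In the PDGF pathway, 2 of 12 genes were lower and 1 higher. *Nrp1*, the coreceptor neuropilin 1, fell from 111 ± 15.97 to 77.1 ± 5.69 CPM (log2 fold change −0.53, edgeR's quasi-likelihood FDR = 0.0129) and kept its call in 8 of 8 fits without 1 library. The ligand gene *Pdgfc* fell (−0.96, FDR = 0.0449, kept in 1 of 8), and *Pik3r1*, the regulatory subunit of PI3-kinase, rose (1.1, FDR = 0.0306, kept in 2 of 8). *Pdgfb*, whose product recruits pericytes, was at 29.2 ± 1.67 and 28.8 ± 6.01 CPM (−0.023, FDR = 0.918).

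In the Notch pathway, 2 of 21 counted genes were lower and 0 higher. At an unadjusted p under 0.05 (edgeR), 3 were lower and 2 higher, against 32.1% of all genes in either direction. DESeq2 called 3 lower and 1 higher. *Adam17*, a protease that sheds membrane proteins including Notch, fell from 37.0 ± 3.85 to 25.9 ± 2.35 CPM (log2 fold change −0.51, FDR = 0.00997 from edgeR's quasi-likelihood test, kept in 8 of 8 fits). The ligand gene *Dll1* fell (−0.48, FDR = 0.0424, kept in 2 of 8). *Jag1*, the ligand for Notch3 on endothelium, was at 14.7 ± 1.44 and 14.2 ± 3.05 CPM (−0.040, FDR = 0.874). *Heyl*, a Notch target of mural cells, was at 19.7 ± 7.81 and 13.4 ± 3.14 CPM (−0.55, FDR = 0.192). *Heyl* was the gene whose log2 CPM followed *Cspg4* most closely over the 8 muscles (r = 0.98). After subtraction of genotype means it was not among the 3 closest.

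Among 17 genes of crosstalk between endothelium and mural cells, 1 was lower and 0 higher, with a median log2 fold change of −0.22. With an unadjusted p under 0.05 (edgeR), 6 were lower and 1 higher, against 32.1% of all genes in either direction. DESeq2 called 3 lower and 1 higher. *Angpt1*, the mural ligand of the endothelial receptor Tie2, had 25.2, 25.4, 27.0 and 29.2 CPM in WT and 12.2, 25.4, 14.1 and 12.4 CPM in KL-/- muscles. KL-/- replicate 2 was at the WT level and the other KL-/- muscles were far below it. The log2 fold change was −0.74 (FDR = 0.0485 from edgeR's quasi-likelihood test), the call was kept in 1 of 8 fits without 1 library, and without KL-/- replicate 2 the log2 fold change was −1.04 (FDR = 6.44e-04).

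**Figure D5:**
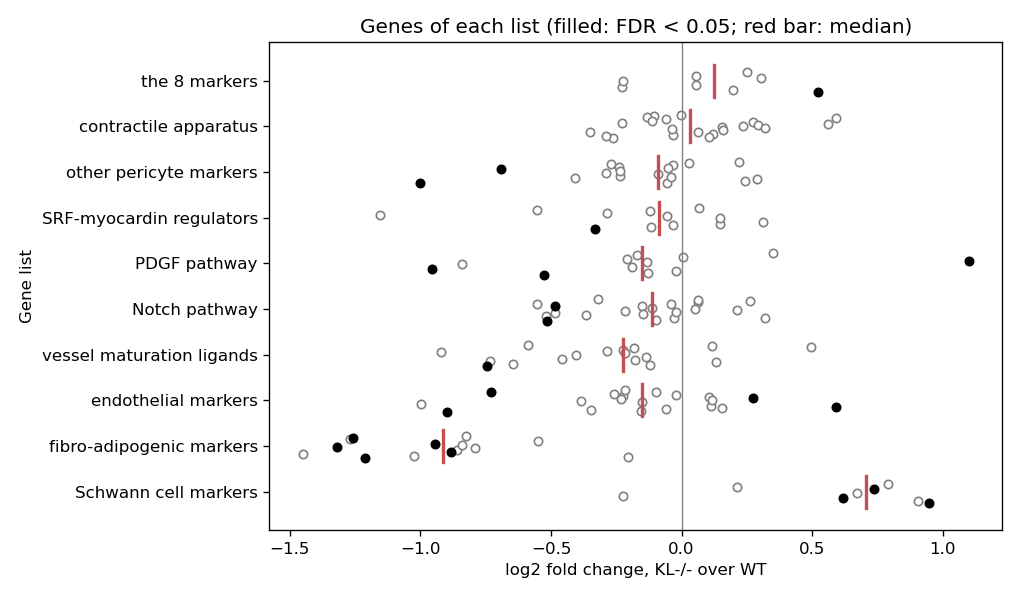
Log2 fold change of KL-/- over WT (horizontal axis) for every counted gene of the members and 9 other lists (rows), filled where FDR is under 0.05, with the median as a bar. Medians run from −0.91 for the fibro-adipogenic markers to 0.70 for the Schwann cell markers, with the 8 mural markers at 0.13.

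Some other genes followed single markers closely within genotypes. Of 11037 candidates, *Tram2* was among the 3 closest to *Rgs5*, *Pdgfrb* and *Notch3*, with r of 0.97 to 0.99 over the 8 muscles after subtraction of genotype means. *Pde5a*, the cGMP phosphodiesterase, was closest to *Pdgfrb* (r = 0.98), *Plxnb1* to *Notch3* (0.99), *Cyth3* to *Rgs5* (0.99), *Fblim1* to *Mcam* (0.98) and *Cxx1c* to *Cspg4* (1.00). *Eln*, elastin of the arterial wall, was among the 3 closest to *Mcam* (0.96). The closest to *Acta2*, *Myh11* and *Tagln* were *Crlf2* (0.99), *Polr2e* (0.96) and *Slc10a3* (0.99). The sarcomeric gene *Tnnc1* was among the 3 closest to *Acta2* (0.98), and the closest before genotype means were subtracted (0.95). *Tnnc1* itself rose (log2 fold change 1.18, edgeR's quasi-likelihood FDR = 0.0399). These genes were picked from 11037 by their r over 8 muscles, so values this high can come from the choice alone. The values are a description, with no test.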

How the data were processed

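RNA from whole TA muscles of 4 WT and 4 KL-/- male mice was sequenced by the authors from 100 ng of RNA per library. The deposited values are raw counts per gene, made by the authors with STAR alignment to mm10, exclusion of low-quality alignments and featureCounts. The annotation version and strand setting are not given in the sources used here. Groups follow the sample titles. The 8 members and all gene lists were chosen with earlier results of these data known.

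Counts were fitted in R 4.3.3 with edgeR 4.0.16 (default low-count filter, which removed 0 of 12551 genes, TMM factors, genotype as the only term, quasi-likelihood test, Benjamini-Hochberg adjustment, FDR under 0.05). Standard errors come from the test statistic, and 95% intervals from its t distribution. Log2 CPM for means and correlations used a prior count of 2. Replicates are labelled only as separate samples, and p-values measure the spread between them. Libraries differed within a genotype by more than sampling noise (chi-square per gene of 9.91 or more). Depth of 20860262 to 29273758 counts puts a floor of 3 counts at 0.105 to 0.143 CPM. The fits were tested on simulated data.

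Named genes are the 8 members, up to 4 genes of each other list with the smallest FDR under 0.05 and an average log2 CPM of at least 0, otherwise up to 3 with the largest absolute log2 fold change, and markers of other cell types and actin paralogs. *Srf*, *Vtn*, *Pdgfb*, *Jag1*, *Heyl*, *Pcsk7*, *Synpo2*, *Synm* and *Tpm2* were added after values had been seen. So were *Abcc9*, *Kcnj8*, *Higd1b*, *Smtn*, *Vcl*, *Cnn1* and *Tnnc1*. Listed symbols not found directly were matched through RefSeq synonyms (4 matches). Gene overlaps come from GENCODE on GRCm38, and the position of 8 of 8 members overlapped it. Alternatives were RLE factors, library totals, no filter, at least 10 counts in every library, DESeq2 1.42.0, limma-voom (limma 3.58.1), the edgeR likelihood ratio and older quasi-likelihood tests, the replicate number as a block and each library left out in turn.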

Additional observations from a re-analysis of the deposited data

Results flagged for a closer look

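*Rgs5* in KL-/- replicate 1 was at 213 CPM, while the other KL-/- muscles lay between 185 and 189 CPM. By Dixon's criterion for a group of 4 its gap to the nearest muscle, taken over the range, was 0.864. Chance flags about 1 in 20 such groups, and 16 groups of 4 (8 markers in 2 genotypes) were examined. The same muscle had the highest *Acta2*, *Myh11*, *Tagln*, *Pdgfrb*, *Cspg4*, *Notch3* and *Mcam* of its genotype. Without it the log2 fold change of *Rgs5* was −0.27.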

How the results depend on the processing

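*Tagln* kept its positive direction under every alternative and passed an FDR of 0.05 in 7 of 9 changes of scaling, filter, test or block. It missed with library totals (log2 fold change 0.41) and with the replicate block (0.52, FDR = 0.109), under which 0 markers were called in each case. With 1 library left out its log2 fold change was 0.44 to 0.64 and the count of markers called 0 to 1. *Acta2*, *Myh11* and *Notch3* stayed positive and *Rgs5* and *Cspg4* negative in all 17 alternatives, none past the threshold. *Pdgfrb* turned to −0.061 and *Mcam* to −0.062 with library totals, which moved the median of all genes to −0.13. With 1 library left out *Pdgfrb* ranged from −0.11 to 0.24 and *Mcam* from −0.048 to 0.14. Genes called over the whole table numbered 762 to 2755 with 1 library left out and 671 under the replicate block. With library totals 18.8% of 2619 called genes were higher, against 52.4% of 1759. The median of the markers ran from 0.0082 to 0.27. Deviations of same-numbered mice had r from −0.37 to 0.18. No label pairs mice by number, and 4 such values cannot exclude a shared litter or handling. A change of *Pdgfrb* or *Cspg4* of the size of its standard error was not detectable at this depth and number of mice. The causes of these changes were not tested.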

Other observations

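Genes of mineralization in vascular smooth muscle were listed because loss of Klotho is known for calcified vessels. Of 12 counted, 0 passed an FDR of 0.05 with edgeR's quasi-likelihood test. At an unadjusted p under 0.05, 1 was higher and 2 lower, against 32.1% of all genes in either direction, and DESeq2 called 1 in each direction. The median log2 fold change was −0.25. *Runx2* had −0.90 (FDR = 0.0982), *Msx1* −0.74 (FDR = 0.0575) and *Spp1*, osteopontin, −1.49 with a standard error of 1.29 (FDR = 0.453). The sign of *Spp1* rested on WT replicate 2, at 44.0 CPM, while the other WT muscles had 0.572, 1.64 and 0.681 CPM and KL-/- muscles 5.61, 1.00, 8.83 and 0.678 CPM. *Slc20a2*, a phosphate transporter named after its values were seen, had 0.34 (FDR = 0.0583).

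Among 8 counted genes listed with the RGS family other than *Rgs5*, 0 passed, with 1 in each direction at an unadjusted p under 0.05. DESeq2 called 1 lower. The 1 that was higher, *Rgs7bp*, encodes a binding protein of RGS7 and not an RGS protein. *Rgs10* had a log2 fold change of −1.25 (FDR = 0.0669), *Rgs7bp* 0.51 (FDR = 0.112) and *Rgs2* −0.35 (FDR = 0.382). Of 4 counted actin paralogs 0 passed with edgeR, and 2 were lower both at an unadjusted p under 0.05 and with DESeq2, *Actb* (−0.40, FDR = 0.0620) and *Actg1* (−0.48, FDR = 0.0928). Of 10 myofiber genes 1 was higher, *Actn3* (0.67, FDR = 0.0103). Over all genes, 7.35% were higher and 6.67% lower at FDR under 0.05, and 32.1% had an unadjusted p under 0.05 (edgeR).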
